A study of Arabidopsis thaliana with 12 samples.

Results

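The ERF and DREB transcription factors of Arabidopsis thaliana were followed in dry and stratified seeds. Members were the loci of the deposited table whose description named an ethylene-responsive transcription factor or a dehydration-responsive element-binding protein. Of 107 loci so matched, 1 was set aside by name. The rule took 106 of the 32833 loci and used no measured value. The 12 libraries were made from whole Col-0 seeds and fell into 4 groups of 3, namely atalkbh1a/1b seeds stratified for 2 days in water at 4 °C, atalkbh1a/1b seeds taken dry at day 0, stratified wild-type seeds and dry wild-type seeds. The series title describes AtALKBH1A and AtALKBH1B as demethylases that act on methylated adenine in DNA. Since no group was kept wet and warm or sampled at another time, cold, imbibition and time cannot be told apart in any change with stratification. Nothing in the labels says that replicates came from separate plants or seed lots, so p-values measure the spread between these libraries, which may be technical.

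ERF and DREB proteins share a DNA-binding AP2 domain. Members of the ERF branch are known to bind the GCC box of ethylene-responsive and defence genes, and members of the DREB branch the dehydration-responsive element of genes induced by cold, drought and abscisic acid (ABA), the hormone that holds seeds dormant. Stratification, a cold and wet period, releases dormancy in Arabidopsis seeds. By the published grouping of the family, 45 members belonged to the DREB branch (groups I to IV) and 50 to the ERF branch (groups V to X). The other 11 were AP2-like factors, most of which carry a repeated AP2 domain, and were caught by the wording of their descriptions. One of these, AT1G01840, had an open reading frame of 152 codons in which no AP2 domain start was found, so its place in the family rests on the description alone.

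The genotype labels and the libraries were checked before any result was drawn. AT1G11780, taken as ALKBH1A, stood at 10.5 ± 4.04 RPKM in stratified and 5.55 ± 1.11 RPKM in dry mutant-labelled seeds, against 13.0 ± 2.07 RPKM in stratified and 4.50 ± 0.0656 RPKM in dry wild-type seeds (SD, n = 3 each), and AT3G14140, taken as ALKBH1B, had 0 to 4 reads per library. A related locus, AT5G01780, was the one that was lower in mutant-labelled seeds, by a log2 change of -2.29 in stratified and -2.20 in dry seeds (limma adjusted p = 2.07e-05 and 9.07e-05). The table pairs none of these loci with the names ALKBH1A or ALKBH1B, and the group is therefore called mutant-labelled. Ribosomal RNA loci held 43.4%, 18.3%, 18.7% and 14.4% of the reads in mutant-labelled stratified libraries 3 and 1, wild-type stratified library 3 and mutant-labelled dry library 2, and at most 7.63% in the other 8 libraries. Wild-type stratified library 3 also stood apart from its replicates, at 71.5 on the first principal component of all genes tested, where mutant-labelled stratified libraries ran from 50 to 85.2 and wild-type stratified libraries 1 and 2 lay at 127 and 143.

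The AP2 domain of the members differs in 2 codons that are used to tell the branches apart, and these are shown for 6 members on which the results turn. Capitals mark the 2 codons, which follow a tryptophan codon and an arginine codon. The sequences were read from the TAIR10.1 reference.
DREB2A (chr5:1602914-1602940, plus strand): aaatggGTTgctgagatcagaGAGcct
RAP2-10 (chr4:17389132-17389158, plus strand): aagtggGTGgcggagataagaGAGcct
RAP2-4 (chr1:29365273-29365299, plus strand): aaatggGTGgctgagatccgtTTGccg
RAP2-3 (chr3:5706286-5706312, plus strand): aaatggGCGgctgagattcgaGATcca
CRF3 (chr5:21618597-21618623, minus strand): aaatggGCGgcggagattagaGATccg
ERF003 (chr5:8707578-8707604, minus strand): tcttggGTCtccgaaattcgtCACcct
A valine codon stood at the first place in 42 of 45 DREB members and in 5 of 50 ERF members, and an alanine codon in 39 of 50 ERF members. At the second place 25 DREB members had a glutamate codon and 10 a leucine codon, as in RAP2-4, while 36 ERF members had an aspartate codon. ERF003, a group V member, carried valine and histidine codons and so differs from RAP2-3 and CRF3 at both places. The stretch was not found in 3 DREB and 5 ERF members.

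The group VII factors are the oxygen-sensing members of the family. Their proteins begin with methionine and cysteine, and the cysteine marks them for degradation through the N-degron pathway when oxygen and nitric oxide are present. The first codons of the 4 group VII members matched by the rule are shown with those of ABR1, the only other member with cysteine as its second codon, and capitals mark the methionine and cysteine codons.
RAP2-3 (chr3:5705784-5705813, plus strand): ATGTGTggcggtgctattatttccgattat
RAP2-2 (chr3:4738971-4739000, minus strand): ATGTGTggaggagctataatctccgatttc
RAP2-12 (chr1:20135242-20135271, plus strand): ATGTGTggaggagctataatatccgatttc
ERF071 (chr2:19503461-19503490, minus strand): ATGTGTgggggagctatcatttctgatttc
ABR1 (chr5:25891679-25891708, plus strand): ATGTGTgtcttaaaagtggcaaatcaggaa
The group VII genes keep the same frame of glycine and alanine codons after the cysteine, and ABR1, a group X factor, does not.

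Values are RPKM as deposited, that is reads scaled to the length of the locus and to the size of the library. A test was made only for loci that reached 1 RPKM in 3 or more libraries, which kept 52 members among 15145 genes. Of the 54 members left out, 13 were at 0 in every library and 48 members in all never reached 1 RPKM. Among the 52 tested, 8 were under 1 RPKM in every dry library and 1, RAP2-11, in every stratified library, so these 9 entered the test through the state in which they were high. Differences are log2(RPKM + 1), which understates the change of low genes, and a gene is called where the limma adjusted p over all genes tested is under 0.05. In whole seeds, fewer cells that express a gene and less of its RNA per cell cannot be told apart.

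The summed level of the members was lower in every stratified than in every dry wild-type library, in the DREB and in the ERF branch, while the ranges overlapped in mutant-labelled seeds. Summed over the 106 members, levels ran from 728 to 1784 RPKM in stratified and 1396 to 1945 RPKM in dry mutant-labelled seeds, and from 968 to 1224 RPKM in stratified and 1989 to 2058 RPKM in dry wild-type seeds. The DREB branch summed to 357 ± 294 RPKM in stratified and 791 ± 154 RPKM in dry mutant-labelled seeds, against 277 ± 80.9 RPKM in stratified and 944 ± 16.6 RPKM in dry wild-type seeds (SD, n = 3 each). The ERF branch summed to 829 ± 272 RPKM in stratified and 944 ± 162 RPKM in dry mutant-labelled seeds, against 739 ± 128 RPKM in stratified and 1053 ± 19.6 RPKM in dry wild-type seeds (SD, n = 3 each). RAP2-3, an ERF-branch member, averaged 171 RPKM in stratified and 539 RPKM in dry mutant-labelled seeds. In wild-type seeds it averaged 95.6 RPKM when stratified and 538 RPKM when dry. In both genotypes its fall was larger than that of the branch sum, so the lower ERF sum rests on this 1 gene. The DREB branch made up 17.5% to 38.8% of the members' sum in the 6 stratified libraries and 43.9% to 46.8% in the 6 dry ones. AP2-like members were higher after stratification, with 105 ± 28.8 RPKM in stratified and 26.1 ± 2.44 RPKM in dry mutant-labelled seeds, and 113 ± 23.5 RPKM in stratified and 30 ± 1.26 RPKM in dry wild-type seeds. These sums are descriptions, and the library with the most DREB RNA among the stratified ones, mutant-labelled library 2 at 692 RPKM, overlapped the dry range of its genotype.

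**Figure D1:**
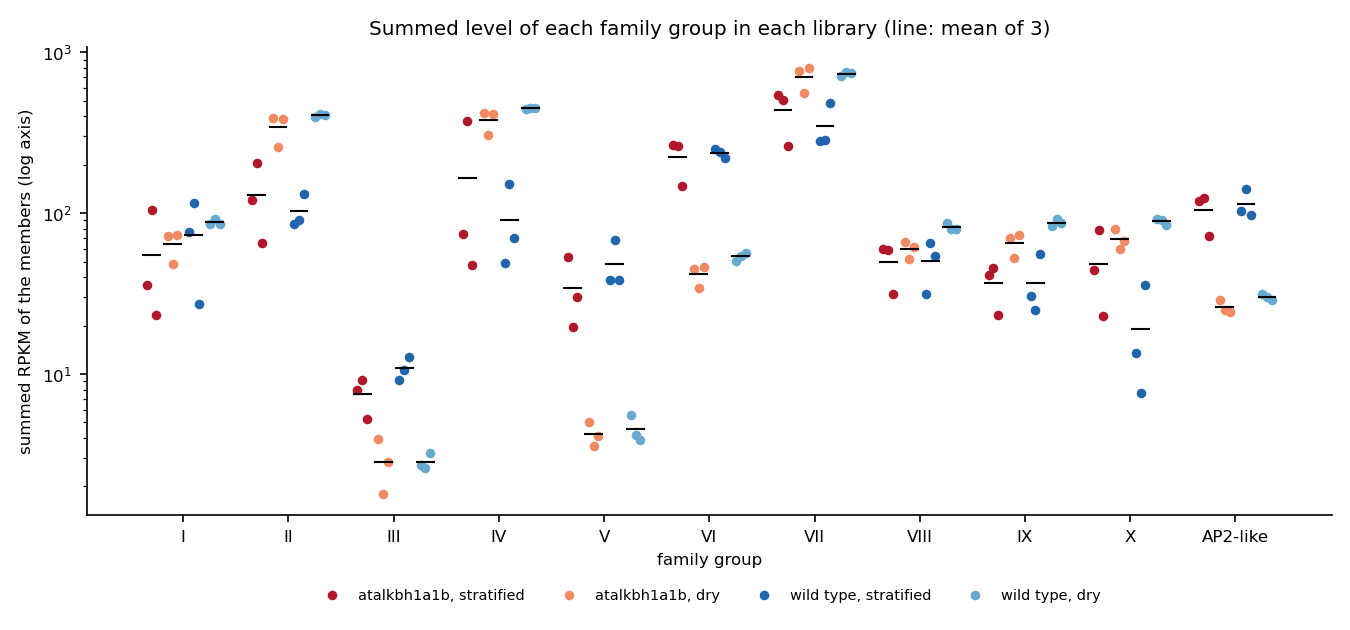
Summed RPKM (log axis) of the members of each family group, with 1 point per library and a line at the mean of 3. Groups II, IV, VII, VIII, IX and X were lower in every stratified than in every dry wild-type library. Single members dominate some sums. In dry wild-type seeds RAP2-3 averaged 538 of the 736 RPKM of group VII. There ERF12 averaged 70.9 of the 82.1 RPKM of group VIII and ABR1 83.1 of the 89.0 RPKM of group X. Other members of groups VII and VIII rose. Groups III, V, VI and AP2-like were higher in every stratified than in every dry library of both genotypes.

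With stratification 21 of the 52 members rose and 14 fell in mutant-labelled seeds, and 23 rose and 20 fell in wild-type seeds. Among all genes tested, 43.4% rose and 15.2% fell in mutant-labelled seeds, and 49.8% rose and 18.9% fell in wild-type seeds. The members' shares were 40.4% higher and 26.9% lower in mutant-labelled seeds, and 44.2% higher and 38.5% lower in wild-type seeds. The median log2 change of the members tested was 0.48 in mutant-labelled and 0.20 in wild-type seeds, beside 0.50 and 0.64 over all genes. After centring each library on its median, which shifted the median of all genes by -0.47 in mutant-labelled and -0.57 in wild-type seeds, 15 members were called higher and 19 lower in mutant-labelled seeds, and 20 higher and 24 lower in wild-type seeds. Under that scaling 32.9% of all genes were higher and 33.8% lower in mutant-labelled seeds, and 38.8% higher and 36.7% lower in wild-type seeds.

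By branch, 4 of the 19 DREB members tested rose and 8 fell in mutant-labelled seeds, and 5 rose and 10 fell in wild-type seeds. Of 26 ERF members, 11 rose and 6 fell in mutant-labelled seeds and 12 rose and 9 fell in wild-type seeds, but with each library centred on its median 9 rose and 9 fell in mutant-labelled seeds and 9 rose and 12 fell in wild-type seeds. The DREB counts were then 3 higher and 9 lower in mutant-labelled seeds and 5 higher and 11 lower in wild-type seeds. Centring lowers the change of every gene by the same amount, and the shares over all genes given above moved the same way. The counts by family group that follow are to be read beside those shares.

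The direction of a member was mostly shared by the genotypes. The sign was the same in 49 of 52 members, 18 were called higher in both genotypes, 14 were called lower in both and none was called in opposite directions. Over all genes tested, 58.6% were called in mutant-labelled and 68.6% in wild-type seeds. The share of all genes with a shared sign or call was not computed, so this agreement is not shown to be particular to the members. Another 3 were called in mutant-labelled seeds alone and 11 in wild-type seeds alone, which does not show that the genotypes differed. The test of that difference is given with the genotype comparisons.

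**Figure D2:**
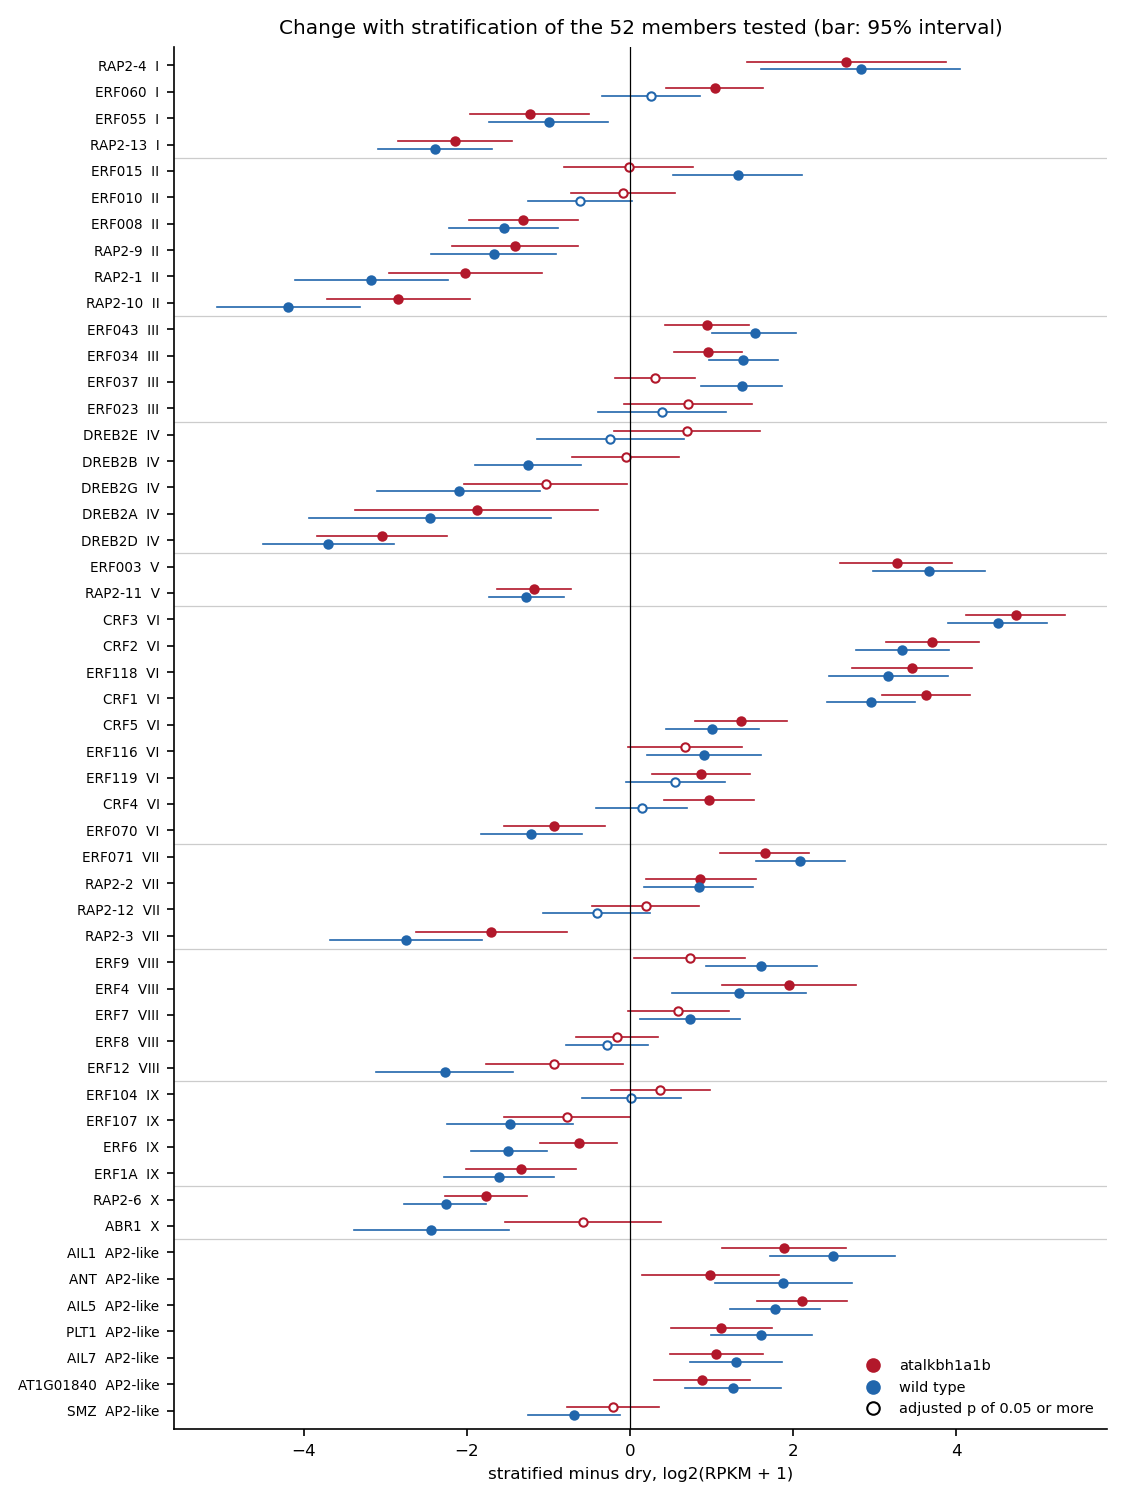
Change with stratification, stratified minus dry on the log2(RPKM + 1) scale, of the 52 members tested in mutant-labelled (red) and wild-type (blue) seeds, ordered by family group, with 95% intervals from the limma fit and open circles where the adjusted p was 0.05 or more. The largest rise was that of CRF3 of group VI at 4.73 and 4.51, and the largest falls were those of DREB2D at -3.04 in mutant-labelled and RAP2-10 at -4.19 in wild-type seeds.

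Among the DREB branch, group IV holds the DREB2 factors, which act in drought and heat responses. Of its 5 members tested 2 fell in mutant-labelled and 4 in wild-type seeds, and none rose. DREB2D (chromosome 1, 28335502 to 28336990) had 12.9, 37.6 and 9.01 RPKM in stratified and 170, 108 and 160 RPKM in dry mutant-labelled libraries. In wild-type libraries it had 12.6, 13.5 and 16.9 RPKM when stratified and 190, 199 and 201 RPKM when dry. Stratified and dry libraries were fully separate in both genotypes, with a log2 change of -3.04 ± 0.38 (SE, limma adjusted p = 4.54e-06) in mutant-labelled and -3.70 ± 0.38 (adjusted p = 2.63e-07) in wild-type seeds.

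DREB2A (chromosome 5, 1602205 to 1604112), the best studied drought and heat activator of the group, varied widely between stratified libraries. It had 26.8, 221 and 18.8 RPKM in stratified and 190, 156 and 203 RPKM in dry mutant-labelled libraries, and 18.3, 114 and 17.7 RPKM in stratified and 191, 187 and 188 RPKM in dry wild-type libraries. The library numbered 2 was the high one in both genotypes, and in mutant-labelled seeds it lay above all 3 dry libraries. The fitted change was -1.88 ± 0.71 in mutant-labelled seeds (limma adjusted p = 0.0298) and -2.45 ± 0.71 in wild-type seeds (adjusted p = 0.00534). The mutant-labelled call is lost without dry library 1, 2 or 3 of that genotype (-1.85, -1.99 and -1.80) and without stratified library 1 or 3 (-1.47 and -1.22), while without stratified library 2 the change is -2.97. With the 4 libraries of over 10% ribosomal RNA left out, where stratified library 2 alone remains of that group, the value is 0.17 (adjusted p = 0.843).

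DREB2G and DREB2B fell in wild-type seeds, with log2 changes of -2.10 ± 0.47 and -1.25 ± 0.31 (limma adjusted p = 0.000842 and 0.00178). In mutant-labelled seeds their changes were -1.03 ± 0.47 and -0.05 ± 0.31 (adjusted p = 0.0711 and 0.890). DREB2G had 11, 44.5 and 6.37 RPKM in stratified and 39.4, 25.1 and 31.6 RPKM in dry mutant-labelled libraries, and 4.91, 10.5 and 12.6 RPKM in stratified and 39.3, 40.6 and 42.3 RPKM in dry wild-type libraries. As for DREB2A, mutant-labelled stratified library 2 was the highest. DREB2E was called in neither genotype and had 63.5 RPKM in that same library, where the other 11 libraries ran from 10.6 to 19.4 RPKM. DREB2A, DREB2B and DREB2E overlap an annotated antisense locus, and since the sources do not say whether reads were counted by strand, reads of the partner cannot be set apart.

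Group II includes the DEAR-type repressors, whose proteins combine a DREB-type domain with an EAR repression motif. The motif was found in the coding sequences of 5 of its members, RAP2-1, RAP2-10, ERF008, ERF010 and ERF011. Of 6 group II members tested 4 fell in both genotypes, namely RAP2-10, RAP2-1, RAP2-9 and ERF008. RAP2-10 (chromosome 4, 17388649 to 17389862) had 4.26, 15.6 and 2.73 RPKM in stratified and 55.2, 39.7 and 51.1 RPKM in dry mutant-labelled libraries, and 2.26, 1.58 and 4.72 RPKM in stratified and 64.6, 69.9 and 61.5 RPKM in dry wild-type libraries. Its change of -2.84 ± 0.42 in mutant-labelled seeds (limma adjusted p = 2.32e-05) and -4.19 ± 0.42 in wild-type seeds (adjusted p = 1.83e-07) was carried by every library.

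RAP2-1, a repressor of cold and drought responses, had 22.1, 37.3 and 11.9 RPKM in stratified and 107, 64.2 and 107 RPKM in dry mutant-labelled libraries. In wild-type libraries it had 7.58, 7.01 and 29.2 RPKM when stratified and 112, 113 and 117 RPKM when dry. It fell by 2.02 ± 0.45 in mutant-labelled and 3.17 ± 0.45 in wild-type seeds on the log2 scale (limma adjusted p = 0.00101 and 8.20e-06). RAP2-9, of the same subgroup, had 59.1, 113 and 32.7 RPKM in stratified and 185, 124 and 185 RPKM in dry mutant-labelled libraries, and 50.4, 51.7 and 66.1 RPKM in stratified and 173, 183 and 183 RPKM in dry wild-type libraries. It was among the 4 highest members of dry seeds, at 165 ± 35.5 RPKM in mutant-labelled and 180 ± 5.65 RPKM in wild-type seeds (SD, n = 3 each), and its log2 changes were -1.41 and -1.67 (adjusted p = 0.00339 and 0.000628). ERF015 was the only group II member to rise, by 1.32 ± 0.38 in wild-type seeds (adjusted p = 0.00481), and its change in mutant-labelled seeds was -0.02 ± 0.38 (adjusted p = 0.975).

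Groups I and III were mixed. Of 4 group I members tested 2 rose and 2 fell in mutant-labelled seeds, and 1 rose and 2 fell in wild-type seeds. RAP2-4 (chromosome 1, 29364072 to 29366207), a group I factor known from light, ethylene and wound responses, rose by 2.65 ± 0.58 in mutant-labelled and 2.83 ± 0.58 in wild-type seeds (limma adjusted p = 0.000909 and 0.000347). It had 19.6, 75.6 and 14.3 RPKM in stratified and 3.74, 3 and 4.16 RPKM in dry mutant-labelled libraries, and 53.5, 91.5 and 11.2 RPKM in stratified and 4.41, 5.02 and 4.24 RPKM in dry wild-type libraries. Its close relative RAP2-13 fell by 2.15 ± 0.33 and 2.39 ± 0.33 (adjusted p = 3.67e-05 and 6.73e-06), and stood at 6.09 to 17.9 RPKM in the 6 stratified and 36.7 to 73.0 RPKM in the 6 dry libraries. The pair thus moved in opposite directions, with no overlap between stratified and dry libraries in either gene.

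Group III holds the CBF or DREB1 cold factors, and stratification is a cold treatment. DREB1A, one of these factors, had 1 read in 1 dry mutant-labelled library and none in the other 11, and 3 reads, the floor used here, are worth at most 0.118 RPKM. The group III members that passed the filter were others. ERF043 and ERF034 rose in both genotypes and ERF037 in wild-type seeds, and all 3 were under 1 RPKM in every dry library. They reached at most 3.38 RPKM, and ERF034 was at 0 in all 6 dry libraries, so its fitted change depends on the pseudocount of 1.

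Within the ERF branch, most members of group VI rose. The group holds the cytokinin response factors (CRFs), which act downstream of cytokinin in embryos, cotyledons and lateral roots. Of its 9 members tested 7 rose and 1 fell in mutant-labelled seeds, and 6 rose and 1 fell in wild-type seeds. Over all genes, 43.4% rose and 15.2% fell in mutant-labelled seeds, and 49.8% rose and 18.9% fell in wild-type seeds. The group summed to 224 ± 66.8 RPKM in stratified and 41.6 ± 6.51 RPKM in dry mutant-labelled seeds, and to 236 ± 16.3 RPKM in stratified and 53.8 ± 2.85 RPKM in dry wild-type seeds (SD, n = 3 each). With each library centred on its median 6 rose and 1 fell in mutant-labelled seeds, and 5 rose and 1 fell in wild-type seeds. Under that scaling 32.9% and 38.8% of all genes rose in mutant-labelled and wild-type seeds.

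CRF3 (chromosome 5, 21617714 to 21619281) had the largest rise of all members in both genotypes. It had 59.4, 28.5 and 29.4 RPKM in stratified and 0.216, 0.593 and 0.512 RPKM in dry mutant-labelled libraries. In wild-type libraries it had 39.4, 42.2 and 53.2 RPKM when stratified and 1.39, 0.961 and 0.718 RPKM when dry. The log2 change was 4.73 ± 0.29 (limma adjusted p = 1.70e-09) in mutant-labelled and 4.51 ± 0.29 (adjusted p = 1.73e-09) in wild-type seeds.

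CRF2, which with CRF3 is known from lateral root initiation, had 53.7, 35.0 and 30.2 RPKM in stratified and 2.51, 1.37 and 2.30 RPKM in dry mutant-labelled libraries, and 50.6, 48.0 and 36.1 RPKM in stratified and 3.66, 3.13 and 3.70 RPKM in dry wild-type libraries. CRF1 had 64.5, 59.1 and 36.4 RPKM in stratified and 3.66, 2.82 and 3.36 RPKM in dry mutant-labelled libraries, and 62.1, 55.2 and 57.2 RPKM in stratified and 5.94, 6.82 and 7.03 RPKM in dry wild-type libraries. ERF118, a relative of the CRFs, had 42.8, 83.7 and 23.8 RPKM in stratified and 3.18, 3 and 3.16 RPKM in dry mutant-labelled libraries, and 62, 46.6 and 35 RPKM in stratified and 3.61, 4.63 and 4.73 RPKM in dry wild-type libraries. In all 3 genes every stratified library lay above every dry one. CRF1 and ERF118 gave log2 changes of 3.63 and 3.46 in mutant-labelled seeds (limma adjusted p = 9.88e-09 and 4.14e-07) and of 2.96 and 3.17 in wild-type seeds (adjusted p = 3.68e-08 and 5.19e-07). CRF5 rose by 1.36 and 1.01. CRF4 rose by 0.97 ± 0.26 in mutant-labelled seeds (adjusted p = 0.00459) and its change in wild-type seeds was 0.14 ± 0.26 (adjusted p = 0.642). The CRF4 call is lost under median centring (log2 change of 0.49, adjusted p = 0.112), and the gene overlaps an antisense locus. ERF070 was the member of the group that fell, by 0.93 in mutant-labelled and 1.21 in wild-type seeds (adjusted p = 0.0120 and 0.0015).

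**Figure D3:**
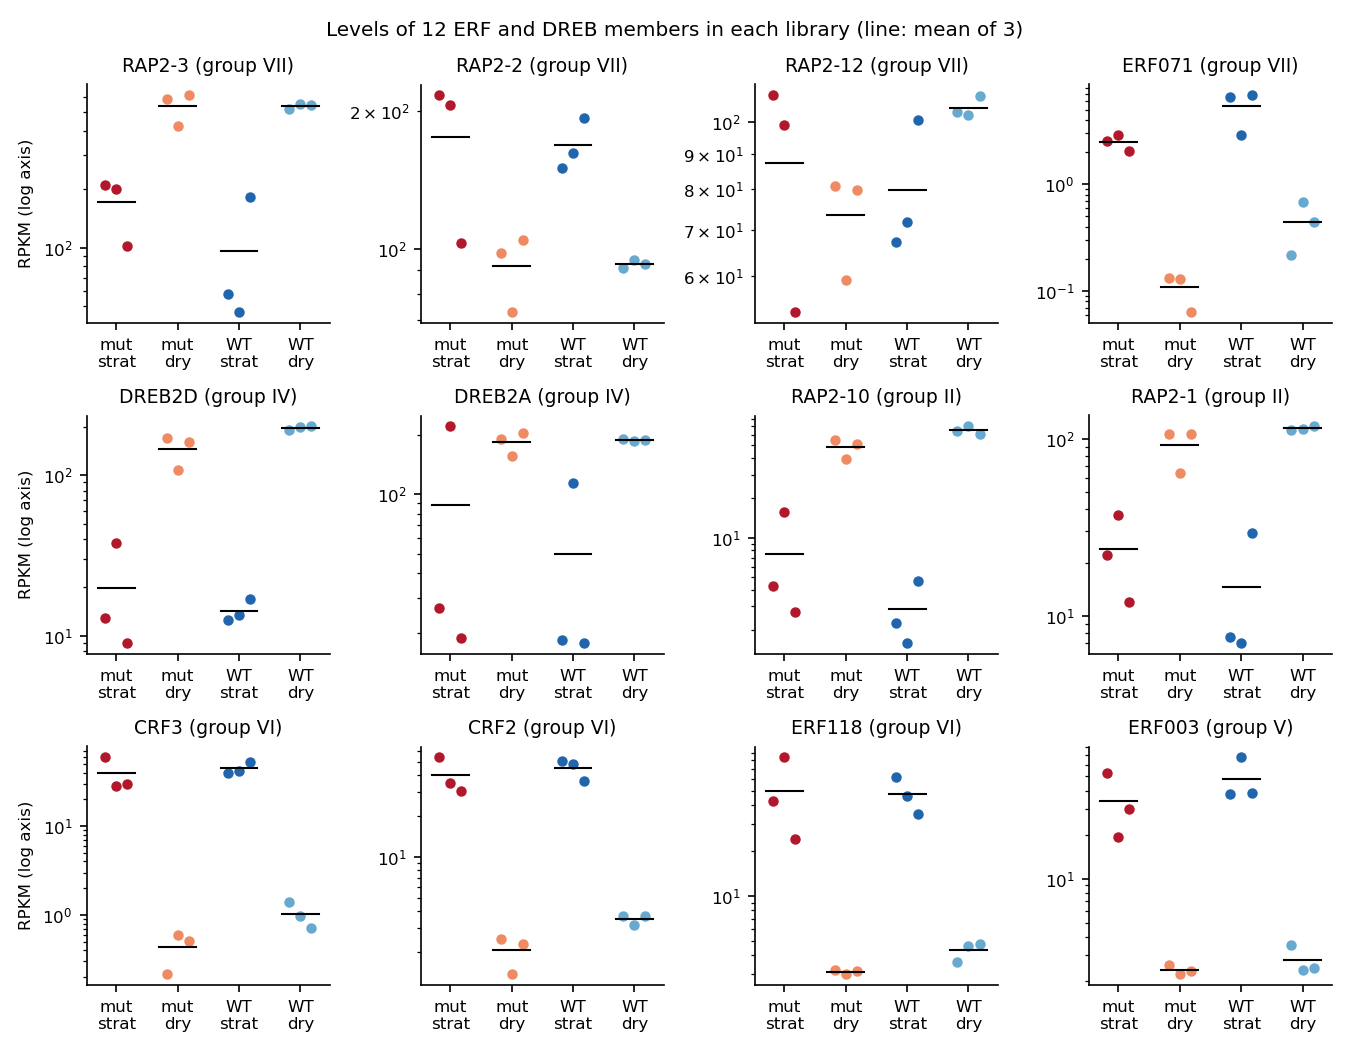
RPKM (log axis) of 12 members in each of the 12 libraries, with a line at the mean of 3, in mutant-labelled (mut) and wild-type (WT) seeds. CRF3, CRF2, ERF118, ERF003 and ERF071 were higher in every stratified library than in every dry one, DREB2D, RAP2-10, RAP2-1 and RAP2-3 were lower, and in RAP2-12 the groups overlapped in mutant-labelled seeds.

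Group V gave 1 member in each direction. ERF003 rose by 3.27 ± 0.33 in mutant-labelled and 3.67 ± 0.33 in wild-type seeds (limma adjusted p = 3.69e-07 and 5.05e-08), with 53.2, 19.1 and 30 RPKM in stratified and 2.55, 2.21 and 2.32 RPKM in dry mutant-labelled libraries, and 38.2, 67.6 and 38.4 RPKM in stratified and 3.5, 2.35 and 2.43 RPKM in dry wild-type libraries. RAP2-11, known from the response to low potassium, fell by 1.18 and 1.27 (adjusted p = 0.000206 and 6.13e-05). It was under 1 RPKM in every stratified library, so the filter fixed its direction. WIN1, the best known cuticle wax factor of the group, was at 0 in all 12 libraries. In a list of 12 genes of cutin and wax synthesis, 6 were tested and all 6 rose in both genotypes, with medians of 1.35 in mutant-labelled and 2.33 in wild-type seeds, beside 0.50 and 0.64 over all genes. GPAT4, LACS2, CER2 and CER3 were under 1 RPKM in every dry library and so were tested only because of their stratified level, which fixed their direction. LACS2, a long-chain acyl-CoA synthetase, rose by 2.34 and 3.34 (adjusted p = 4.33e-05 and 5.15e-07). KCR1, a reductase of fatty acid elongation, averaged 49.2 ± 18.7 RPKM in stratified and 6.88 ± 1.5 RPKM in dry mutant-labelled seeds, and 62.3 ± 9.46 RPKM in stratified and 7.18 ± 0.601 RPKM in dry wild-type seeds (SD, n = 3 each). Of 3 embryo epidermis markers, PDF1 and PDF2 rose in both genotypes and ATML1 did not pass the test, with changes of 0.03 and 0.28 (adjusted p = 0.937 and 0.440). PDF1 averaged 28.1 ± 18.6 RPKM in stratified and 0.996 ± 0.437 RPKM in dry mutant-labelled seeds, and 114 ± 60.8 RPKM in stratified and 1.35 ± 0.229 RPKM in dry wild-type seeds. The 3 markers summed to 20.1 to 73.6 RPKM in stratified and 11.8 to 13.0 RPKM in dry mutant-labelled libraries, and to 59.9 to 183 RPKM in stratified and 13.7 to 14.4 RPKM in dry wild-type libraries, and their part in the result was not tested.

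Group VII held the most abundant member of each of the 4 groups of libraries, and of its 4 members 2 rose and 1 fell in each genotype. The 2 that rose were RAP2-2 and ERF071. ERF071 was under 1 RPKM in every dry library and so was tested only because of its stratified level, which fixed its direction. With each library centred on its median 1 rose and 1 fell in mutant-labelled seeds, and 1 rose and 2 fell in wild-type seeds. RAP2-3 (chromosome 3, 5705541 to 5707084) was the highest member in dry seeds, at 539 ± 101 RPKM in mutant-labelled and 538 ± 16.2 RPKM in wild-type seeds (SD, n = 3 each), where it ranked 105 and 114 among all loci. It had 211, 199 and 102 RPKM in stratified and 585, 423 and 609 RPKM in dry mutant-labelled libraries, and 57.9, 46.4 and 182 RPKM in stratified and 521, 553 and 541 RPKM in dry wild-type libraries. All stratified libraries lay below all dry ones, and wild-type stratified library 3 was at the level of the mutant-labelled stratified libraries. RAP2-3 fell by 1.71 ± 0.44 in mutant-labelled and by 2.75 ± 0.44 in wild-type seeds (limma adjusted p = 0.00323 and 3.15e-05).

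RAP2-2 was the highest member in stratified seeds of both genotypes. It had 216, 206 and 103 RPKM in stratified and 97.9, 72.9 and 105 RPKM in dry mutant-labelled libraries, and 150, 162 and 193 RPKM in stratified and 91.1, 94.7 and 92.8 RPKM in dry wild-type libraries. It rose by 0.86 ± 0.32 in mutant-labelled and 0.84 ± 0.32 in wild-type seeds (limma adjusted p = 0.0276 and 0.0263), close to the median change of all genes, and the call is lost under median centring (0.39 and 0.27, adjusted p = 0.0918 and 0.222). It is also lost without mutant-labelled dry library 1 or 2 or stratified library 1 or 2 (0.92, 0.71, 0.68 and 0.71), and without wild-type dry library 1, 2 or 3 or stratified library 2 or 3 (0.83, 0.86, 0.84, 0.87 and 0.74). RAP2-12, like RAP2-2 an activator of the response to low oxygen, was called in neither genotype, with log2 changes of 0.20 and -0.41 (adjusted p = 0.603 and 0.250) and 53.2 to 109 RPKM over the 12 libraries. ERF071, also known as HRE2, stood at 2.55, 2.88 and 2.04 RPKM in stratified and 0.134, 0.130 and 0.0635 RPKM in dry mutant-labelled libraries, and at 6.55, 2.88 and 6.79 RPKM in stratified and 0.216, 0.684 and 0.445 RPKM in dry wild-type libraries. It rose by 1.65 and 2.09 (adjusted p = 5.02e-05 and 2.27e-06).

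The genes that surround group VII were examined through lists of the N-degron pathway and of the core response to low oxygen. In the N-degron list of 9 genes, 3 rose in each genotype, the plant cysteine oxidases PCO1 and PCO2 and the amidase locus AT2G44420, and 1, the arginyltransferase gene ATE2, fell by 0.73 in mutant-labelled seeds (limma adjusted p = 0.0254). Of all genes tested 43.4% rose in mutant-labelled and 49.8% in wild-type seeds, a larger share than 3 of 9. PCO1 averaged 56.2 ± 13.4 RPKM in stratified and 3.41 ± 0.397 RPKM in dry mutant-labelled seeds, and 79.5 ± 6.23 RPKM in stratified and 3.86 ± 0.0852 RPKM in dry wild-type seeds (SD, n = 3 each). PRT6, the ligase of the pathway, had log2 changes of 0.51 and -0.26 (limma adjusted p = 0.0828 and 0.367).

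Of the low-oxygen list, 12 of 15 genes were tested. In mutant-labelled seeds 10 rose and 1 fell, and in wild-type seeds 10 rose and 2 fell, with median changes of 1.34 and 2.20, where 43.4% and 49.8% of all genes rose and the medians were 0.50 and 0.64. HRA1, ACO1, SAD6 and AT4G10270 were under 1 RPKM in every dry library, so the filter fixed the direction of these 4. HB1, a non-symbiotic haemoglobin, rose by 4.79 and 4.93 (limma adjusted p = 3.67e-08 and 1.08e-08), and PDC1, a pyruvate decarboxylase, by 3.27 and 2.47 (adjusted p = 2.14e-07 and 2.34e-06). ADH1, the alcohol dehydrogenase that acts after pyruvate decarboxylase in fermentation, fell by 1.68 and 2.99 (adjusted p = 0.00397 and 1.54e-05) and averaged 82.9 ± 27.4 RPKM in stratified and 259 ± 37.8 RPKM in dry mutant-labelled seeds, and 49.6 ± 45.3 RPKM in stratified and 313 ± 7.58 RPKM in dry wild-type seeds (SD, n = 3 each). PCO1 and PCO2 stand in both lists, and ETR2 and ACO1 of the low-oxygen list are also counted with ethylene below.

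**Figure D4:**
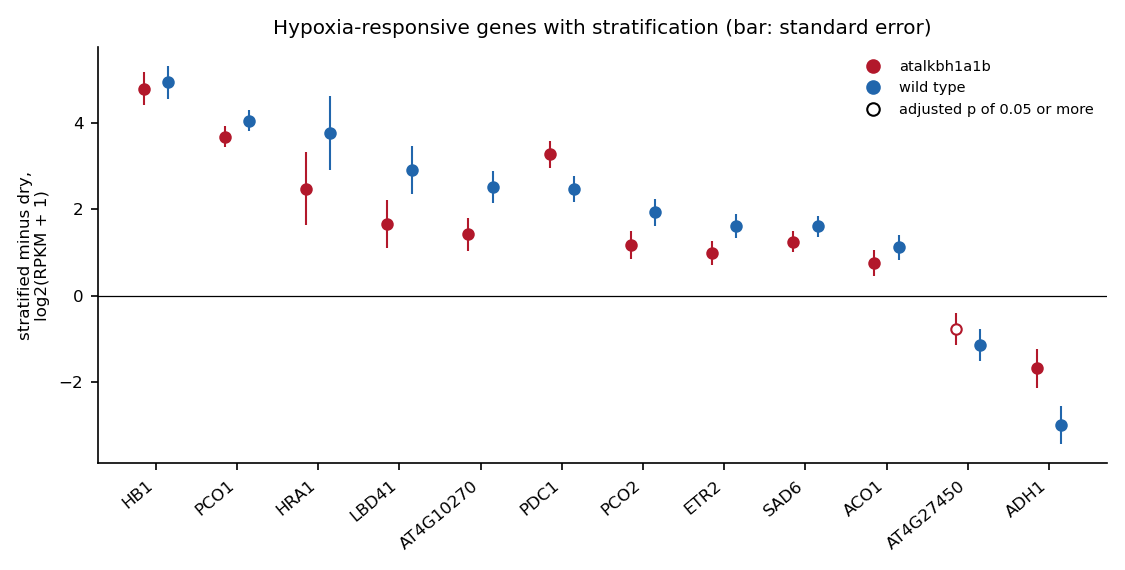
Change with stratification, stratified minus dry on the log2(RPKM + 1) scale, of the 12 tested genes of the low-oxygen list in mutant-labelled (red) and wild-type (blue) seeds, with the standard error and an open circle where the adjusted p was 0.05 or more. HB1 and PCO1 lie highest, ADH1 lowest, and AT4G27450 had a change of -0.77 in mutant-labelled and -1.14 in wild-type seeds.

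Group VIII holds ERF-type repressors with an EAR motif, which was found in 5 of its members, all of them tested. In mutant-labelled seeds 1 rose and none fell, and in wild-type seeds 3 rose and 1 fell. ERF9, 1 of those that rose in wild-type seeds, was under 1 RPKM in every dry library, so the filter fixed its direction. With each library centred on its median 1 rose and 2 fell in mutant-labelled seeds, and 2 rose and 2 fell in wild-type seeds. ERF4, a repressor of ethylene and ABA responses, had 13.5, 17.0 and 6.48 RPKM in stratified and 2.59, 1.56 and 2.68 RPKM in dry mutant-labelled libraries, and 10.4, 33.7 and 10 RPKM in stratified and 5.52, 5.49 and 5.41 RPKM in dry wild-type libraries. It rose by 1.95 ± 0.39 and 1.34 ± 0.39 (limma adjusted p = 0.000423 and 0.00579). ERF12, a repressor that has been linked to seed dormancy, fell by 2.27 ± 0.40 in wild-type seeds (adjusted p = 7.90e-05) and had a change of -0.93 ± 0.40 in mutant-labelled seeds (adjusted p = 0.0535). It had 34.9, 30.5 and 19.0 RPKM in stratified and 58.6, 46.6 and 54.0 RPKM in dry mutant-labelled libraries, and 7.93, 9.42 and 34.5 RPKM in stratified and 74.9, 69.1 and 68.7 RPKM in dry wild-type libraries. ERF7, another repressor of ABA responses, rose by 0.74 in wild-type seeds (adjusted p = 0.0324), a call that is lost under median centring (0.16, adjusted p = 0.299), without wild-type dry library 2 or 3 (0.66 and 0.73) and without wild-type stratified library 1 or 2 (0.65 and 0.60). Over groups II and VIII together, 9 tested members carried the EAR motif, of which 1 rose and 3 fell in mutant-labelled seeds and 3 rose and 4 fell in wild-type seeds.

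Group IX, the ethylene and jasmonate output factors of defence, and group X had no tested member that rose, with 4 of 14 and 2 of 8 members tested. Over all genes, 43.4% rose and 15.2% fell in mutant-labelled seeds, and 49.8% rose and 18.9% fell in wild-type seeds. In group IX 2 of 4 fell in mutant-labelled and 3 of 4 in wild-type seeds. ERF1A had 9.65, 15.4 and 4.61 RPKM in stratified and 25.9, 19.4 and 28.0 RPKM in dry mutant-labelled libraries, and 7.83, 6.95 and 9 RPKM in stratified and 23.7, 27.9 and 26.8 RPKM in dry wild-type libraries, and fell by 1.34 and 1.61 (limma adjusted p = 0.00177 and 0.000260). Its neighbour ERF6, which lies 5041 bases away on chromosome 4, fell by 0.63 and 1.49 (adjusted p = 0.0213 and 1.50e-05). ERF107, a repressor of cuticular wax synthesis, and ERF104 lie 832 bases apart on chromosome 5. ERF107 had changes of -0.77 in mutant-labelled and -1.47 in wild-type seeds (adjusted p = 0.0794 and 0.00182) and ERF104 of 0.37 and 0.02 (adjusted p = 0.274 and 0.958), and the difference between the genes was not tested. ERF1B and ERF094 (ORA59), integrators of ethylene and jasmonate, reached at most 0.488 and 0.0504 RPKM in any library.

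In group X, ABR1 (chromosome 5, 25891449 to 25893888), a repressor of ABA responses, had 42.9, 76.3 and 22.4 RPKM in stratified and 73.4, 55.0 and 61.8 RPKM in dry mutant-labelled libraries. In wild-type libraries it had 12.6, 6.70 and 34.6 RPKM when stratified and 85.7, 85.6 and 78.1 RPKM when dry. It fell by 2.44 ± 0.46 in wild-type seeds (limma adjusted p = 0.000144), while its change in mutant-labelled seeds was -0.57 ± 0.46 (adjusted p = 0.287), where stratified and dry libraries overlapped. ABR1 overlaps an antisense locus. RAP2-6, a factor induced by ABA and wounding, fell by 1.76 and 2.26 (adjusted p = 1.02e-05 and 3.53e-07) and stood at 0.224 to 1.23 RPKM in the 6 stratified and 4.77 to 6.21 RPKM in the 6 dry libraries. ERF115, a group X factor of stem cell renewal after wounding, had at most 7 reads in a library.

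AP2-like members rose, except for the floral repressor SMZ. In both genotypes 6 of 7 tested were called higher, and SMZ fell in wild-type seeds (log2 change of -0.69, limma adjusted p = 0.0300). Of all genes tested 43.4% were called higher in mutant-labelled and 49.8% in wild-type seeds. AT1G01840, ANT and PLT1 were under 1 RPKM in every dry library and so were tested only because of their stratified level, which fixed their direction. With each library centred on its median, 3 were higher and 1 lower in mutant-labelled seeds, and 6 were higher and 1 lower in wild-type seeds. AIL5, also known as CHOTTO1 and linked to ABA responses of germinating seeds, had 91.2, 83.4 and 53.7 RPKM in stratified and 17.7, 16.2 and 15.5 RPKM in dry mutant-labelled libraries, and 64.0, 80.8 and 71.1 RPKM in stratified and 21.9, 19.5 and 19.2 RPKM in dry wild-type libraries. It rose by 2.11 ± 0.26 and 1.78 ± 0.26 (adjusted p = 3.98e-06 and 1.32e-05). AIL1, a related growth factor, had 6.74, 15.6 and 4.29 RPKM in stratified and 1.9, 1.14 and 1.16 RPKM in dry mutant-labelled libraries, and 15.8, 21.2 and 8.75 RPKM in stratified and 1.71, 1.56 and 1.98 RPKM in dry wild-type libraries. It rose by 1.89 and 2.49 (adjusted p = 0.000289 and 1.16e-05), without overlap between stratified and dry libraries. ANT, which promotes organ growth, and PLT1, which maintains the root stem cells, were under 1 RPKM in every dry library and reached 7.68 and 5.21 RPKM in wild-type stratified library 2.

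Ethylene is the hormone from which the ERF branch takes its name. In a list of 12 signalling genes 4 rose in each genotype, and none fell in mutant-labelled and 3 in wild-type seeds, with medians of 0.13 and -0.22. Of all genes tested 43.4% rose and 15.2% fell in mutant-labelled seeds, and 49.8% rose and 18.9% fell in wild-type seeds. The share that rose was thus larger over all genes than in this list. The receptor gene ERS1, under 1 RPKM in every dry library, rose by 2.70 and 2.96 (limma adjusted p = 1.97e-07 and 3.36e-08). EIN3, the transcription factor upstream of ERF genes, averaged 72.3 ± 21.3 RPKM in stratified and 91.2 ± 10.1 RPKM in dry mutant-labelled seeds, and 43.9 ± 20.4 RPKM in stratified and 112 ± 2.35 RPKM in dry wild-type seeds (SD, n = 3 each), with changes of -0.37 (adjusted p = 0.336) and -1.43 (adjusted p = 0.000885). Of 14 synthesis genes 4 were tested, and in both genotypes ACO1 rose and ACS2 fell. The fall of ACS2 was 2.52 in mutant-labelled and 3 in wild-type seeds on the log2 scale (limma adjusted p = 4.60e-06 and 3.40e-07).

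Known targets of the DREB and ERF branches were few among the tested genes. Of 12 cold and drought targets 5 were tested, of which none rose and 2 fell in mutant-labelled seeds, and 2 rose and 3 fell in wild-type seeds. RD29B, an ABA and drought marker, fell by 2.47 and 3.28 (limma adjusted p = 0.000139 and 4.58e-06), and COR47, a dehydrin that was under 1 RPKM in every dry library, rose by 2.67 in wild-type seeds (adjusted p = 0.000119) with a change of 1.05 in mutant-labelled seeds (adjusted p = 0.0740). Of 8 GCC-box defence targets 2 were tested. PR4 fell by 2.44 and 3.01 (adjusted p = 5.29e-05 and 3.30e-06), and TI1, a trypsin inhibitor, rose by 0.93 in wild-type seeds (adjusted p = 0.0118) with a change of -0.10 in mutant-labelled seeds (adjusted p = 0.796).

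The 250 bases before each gene start were searched on both strands for the GCC box (GCCGCC), the DRE core (CCGAC) and the ABRE core (ACGTG) that ABA-responsive factors bind. CACGTG holds the ABRE core on both strands and was counted for each. The GCC box was found before 3.77% of the 106 members and 1.87% of 27443 protein-coding loci, the DRE core before 15.1% and 12%, and the ABRE core before 30.2% and 22.9%. The ABRE core, added after values were seen, was present before 7 of the 14 members that fell in mutant-labelled seeds and 7 of the 21 that rose. In wild-type seeds it was present before 11 of the 20 members that fell and 6 of the 23 that rose. The DRE core stood before 2 of the 14 that fell and 5 of the 21 that rose in mutant-labelled seeds. In wild-type seeds it stood before 4 of the 20 that fell and 7 of the 23 that rose. The GCC box stood before 1 of the 14 and 0 of the 21, and before 2 of the 20 and 0 of the 23. These counts are a description in which members of 1 group are not independent. Upstream sequences are shown of DREB2D, which fell in both genotypes, DREB2G, which fell in wild-type seeds, and ERF118, which rose in both, with all 3 kinds of match in capitals.
DREB2D (chr1:28335252-28335501, plus strand): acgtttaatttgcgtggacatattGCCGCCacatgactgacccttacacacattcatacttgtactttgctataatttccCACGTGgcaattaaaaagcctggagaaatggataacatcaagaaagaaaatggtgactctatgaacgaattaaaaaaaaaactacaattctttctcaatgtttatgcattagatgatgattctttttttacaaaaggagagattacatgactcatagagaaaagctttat
DREB2G (chr5:6117042-6117291, minus strand): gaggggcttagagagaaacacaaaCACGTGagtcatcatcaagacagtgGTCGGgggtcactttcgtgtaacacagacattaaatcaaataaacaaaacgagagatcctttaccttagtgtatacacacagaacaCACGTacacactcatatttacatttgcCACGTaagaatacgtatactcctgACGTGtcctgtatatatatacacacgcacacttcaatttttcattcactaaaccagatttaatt
ERF118 (chr1:25727702-25727951, minus strand): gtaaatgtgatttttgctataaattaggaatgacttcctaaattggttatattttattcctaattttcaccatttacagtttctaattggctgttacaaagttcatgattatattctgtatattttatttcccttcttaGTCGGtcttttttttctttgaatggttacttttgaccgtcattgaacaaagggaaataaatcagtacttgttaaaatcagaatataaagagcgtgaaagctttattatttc
DREB2D held a GCC box and a palindromic ABRE core, DREB2G held ABRE cores in 4 places and a DRE core, and ERF118 held a DRE core alone.

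Between the genotypes no member passed the test. In dry seeds 0 members were called by limma and 5 had an unadjusted p under 0.05, and in stratified seeds 0 were called and 11 had an unadjusted p under 0.05. Of all genes tested, 0.0462% were called in dry and 0.211% in stratified seeds. The mutant-labelled dry libraries lay below all wild-type dry libraries in 28 of 52 members and above them in 3, beside 21.3% and 4.85% of all genes. The median difference of the members in dry seeds was -0.27, beside -0.07 over all genes. Mutant-labelled dry library 2, which held 14.4% ribosomal RNA, was the lowest of its group in most members. Without it the median difference of the members was -0.16, beside -0.0047 over all genes, and the mutant-labelled libraries lay below the wild-type ones in 28 members and above them in 6, beside 22.5% and 20.5% of all genes. In stratified seeds the mutant-labelled libraries lay above all wild-type libraries in 1 member and below them in 2, beside 1.43% and 3.62% of all genes. The largest difference was that of ABR1 in stratified seeds, 1.47 ± 0.46 higher in mutant-labelled seeds (95% interval 0.51 to 2.43, adjusted p = 0.159).

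The response to stratification was also compared between the genotypes directly. For this interaction limma called 0 members, 8 had an unadjusted p under 0.05, and 0.0264% of all genes were called. Of the 20 members that fell in wild-type seeds, 19 had a smaller fall or a rise in mutant-labelled seeds, and of the 23 that rose, 15 had a smaller rise or a fall. These counts are a description, since the wild-type values chose these members and no share over all genes was computed. The widest differences were those of ABR1 (1.86 ± 0.64), RAP2-10 (1.35 ± 0.59) and ERF12 (1.34 ± 0.56) on the positive side and ERF015 (-1.34 ± 0.53) on the negative side, each with a limma adjusted p of 0.671.

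These comparisons depend on wild-type stratified library 3. In RAP2-3, ERF12, ABR1, RAP2-1 and ERF107 that library was at 182, 34.5, 34.6, 29.2 and 39.5 RPKM, where wild-type stratified libraries 1 and 2 had at most 57.9, 9.42, 12.6, 7.58 and 15.1 RPKM. Left out, 6 members were called higher and 10 lower in stratified mutant-labelled seeds, where 5.48% of all genes were called higher and 24.3% lower. The 6 were ABR1 (2.07), RAP2-3 (1.63), ERF12 (1.55), RAP2-1 (1.44), RAP2-10 (1.25) and DREB2B (1.21), and the largest differences among the 10 were those of ANT (-1.55) and RAP2-4 (-1.30). For the interaction, 7 members were then called higher and 4 lower, beside 3.86% and 11.6% of all genes. With the 4 libraries of over 10% ribosomal RNA left out, a single stratified mutant-labelled library remained, which is assumed to vary like the other groups, and 25 members were called higher and 6 lower in stratified seeds, beside 23.9% and 18.5% of all genes. For the interaction 25 were then called higher and 6 lower, beside 20.3% and 14.9% of all genes.

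**Figure D5:**
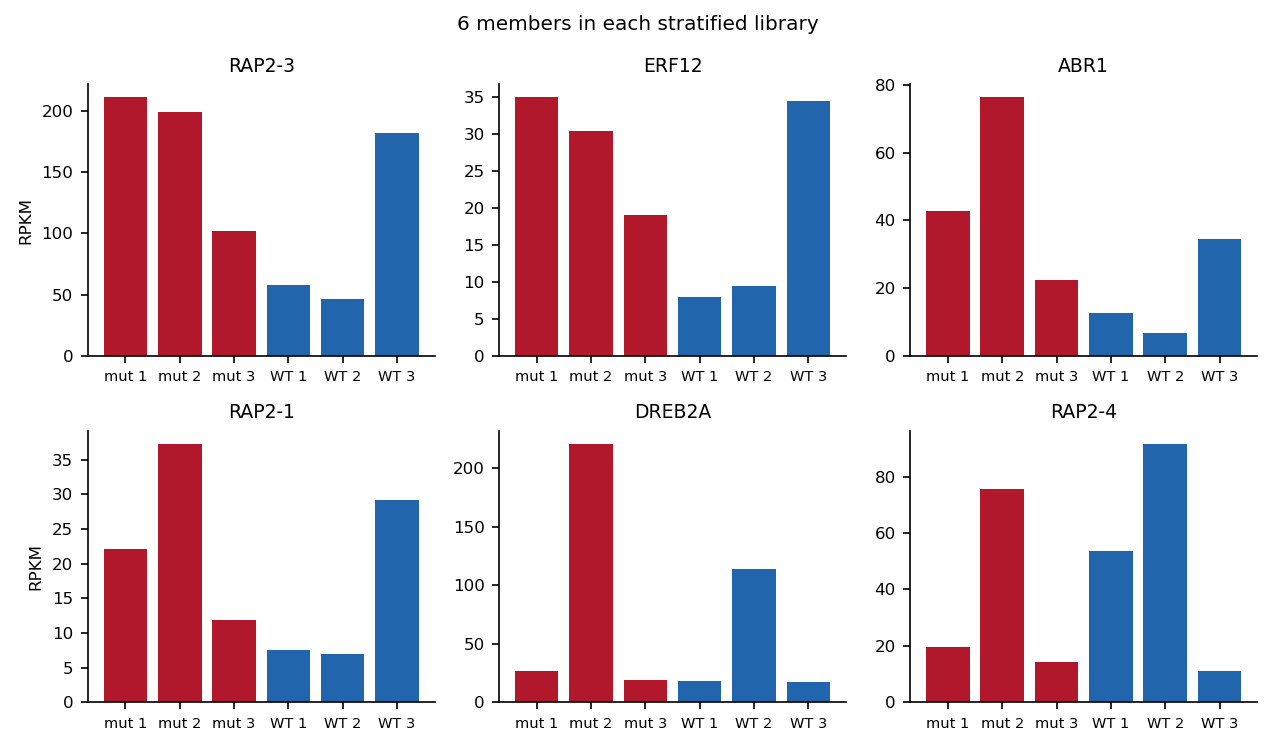
RPKM of 6 members in each stratified library, mutant-labelled libraries (red) left of wild-type ones (blue). In RAP2-3, ERF12 and RAP2-1 wild-type library 3 lay within the mutant-labelled range and libraries 1 and 2 below it, and in DREB2A and RAP2-4 the libraries numbered 2 were the highest of their genotype.

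The spread among replicates was itself wider in stratified than in dry seeds. The highest library was more than 2 times the lowest in 38 of 52 members in stratified and 9 of 50 in dry mutant-labelled seeds, and in 29 of 52 in stratified and 2 of 48 in dry wild-type seeds, counting members above 0 in all 3 libraries. The widest ranges were 14.9-fold in ANT in stratified wild-type seeds and 11.8-fold in DREB2A in stratified mutant-labelled seeds. Over all genes tested, replicates correlated at 0.949 to 0.991 in stratified and 0.990 to 0.995 in dry mutant-labelled seeds. In wild-type seeds they correlated at 0.890 to 0.981 when stratified and at 0.996 when dry. The wider spread was thus not confined to the members. Ribosomal RNA ran from 4.56% to 43.4% of reads in stratified mutant-labelled and from 3.55% to 18.7% in stratified wild-type libraries, against 4.04% to 14.4% in dry mutant-labelled and 3.61% to 4.17% in dry wild-type libraries, and its part in the spread was not tested.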

How the data were processed

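The authors deposited RPKM values for 32833 loci in 12 libraries. Per the labels' protocols, poly(A) RNA was captured with oligo-dT and a directional kit was used. STAR, DESeq2 and TAIR10 appear in the submitters' processing notes, with no role. How reads were counted, by strand or not, and what was done with multi-mapping reads is not given in the sources used here. Names, positions and sequences came from RefSeq's annotation of TAIR10.1, and coding sequences were translated from it.

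The test ran in limma 3.58.1 (R 4.3.3) on log2(RPKM + 1), with 4 group means over all 12 libraries, a mean-variance trend, two-sided p-values and Benjamini-Hochberg adjustment over 15145 genes. A test on counts was not used. With exon lengths, 99.3% of low values were whole numbers of reads to within 0.05 (10% by chance), which gave 17.8 M to 23.0 M reads per library. Floors of 3 reads cover counting error only. No replicate pair agreed within sampling noise. Correlations between deviations of same-numbered libraries ran from -0.32 to 0.20, and numbers were not used to pair samples. With 3 libraries per group, these correlations cannot exclude that same-numbered libraries share an origin.

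Members and lists were chosen with earlier results of these data known. Members were named by role, by the 6 highest and 6 lowest changes per genotype and by the 4 highest levels per group. Other members shown, and the ABRE core, were added after values were seen. Family groups follow the published classification.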

Additional observations from a re-analysis of the deposited data

How the results depend on the processing

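Leaving out each library in turn gave 18 to 25 higher and 11 to 17 lower in mutant-labelled seeds and 20 to 24 higher and 19 to 21 lower in wild-type seeds. With ribosomal RNA left out of the library totals, 32 of 56 members were higher and 13 lower in mutant-labelled seeds (62.8% and 13.9% of all genes). In wild-type seeds 28 were then higher and 20 lower (61% and 19% of all genes). In that setting 3 members were higher in stratified mutant-labelled than wild-type seeds (6.5% of all genes). Median centring and quantile normalization, which lowered the median change of all genes, gave 15 and 14 higher and 19 and 19 lower in mutant-labelled seeds, and 20 and 17 higher and 24 and 25 lower in wild-type seeds. Under quantile normalization 32.4% of all genes were higher and 35% lower in mutant-labelled seeds, and 36.7% and 38% in wild-type seeds. Leaving out single libraries gave 0 to 6 members higher and 0 to 10 lower between genotypes in stratified seeds, and 0 to 7 higher and 0 to 4 lower for the interaction. Without the 4 libraries of over 10% ribosomal RNA, 25 and 6 were called in stratified seeds, 25 and 6 for the interaction, and 1 member, CRF1, was lower in dry mutant-labelled seeds. The change of DREB2A in mutant-labelled seeds then reversed to 0.17. With the replicate number as a block, 22 members rose and 14 fell in mutant-labelled seeds, 23 rose and 20 fell in wild-type seeds, and none differed between genotypes. Deviations of same-numbered libraries correlated at -0.32 to 0.20, which does not settle whether they are paired. Of 42 calls of named members, 37 held under every alternative, and those lost somewhere were RAP2-2 in both genotypes, DREB2A and CRF4 in mutant-labelled seeds and ERF7 in wild-type seeds. Depth limits what can be said of the 54 members below the filter, none of which exceeded 2.79 RPKM.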

Other observations

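Several members below the filter had their highest levels in stratified seeds. ESR1, an activator of shoot regeneration, had 0.948, 0.440 and 1.42 RPKM in stratified mutant-labelled and 0.662, 2.70 and 0.889 RPKM in stratified wild-type libraries, and was listed at 0 in all 6 dry libraries. ESR2, its paralogue, had 1.04, 0.452 and 0.581 RPKM in stratified mutant-labelled and 0.729, 1.61 and 0.832 RPKM in stratified wild-type libraries. ERF106 had 0.351, 0.147 and 0.726 RPKM in stratified mutant-labelled and 2.79, 1.35 and 0.427 RPKM in stratified wild-type libraries. TOE3, a repressor of flowering, stood at 2.19 RPKM in wild-type stratified library 2 and at 0.615 RPKM or less in the other 11. PLT2, which acts with PLT1 in the root stem cells, had 1.25, 0.633 and 0.768 RPKM in stratified and 0.201, 0.171 and 0.0955 RPKM in dry mutant-labelled libraries, and 0.756, 2.56 and 0.633 RPKM in stratified and 0.243, 0.178 and 0.215 RPKM in dry wild-type libraries. These 5 were chosen after their values were seen. Of the 41 members below the filter with a value above 0, 9 were detected in stratified libraries alone and 4 in dry libraries alone.

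Markers of other seed tissues gave these levels. The 5 endosperm genes summed to 659 ± 167 RPKM in stratified and 2034 ± 344 RPKM in dry mutant-labelled seeds. In wild-type seeds they summed to 878 ± 393 RPKM when stratified and 2244 ± 455 RPKM when dry. Of these 5 genes 3 were tested, with EXPA2 and MAN7 higher and EPR1 lower in stratified seeds of both genotypes. EXPA2 was under 1 RPKM in every dry library, so the filter fixed its direction. It averaged 56.6 ± 42.7 RPKM in stratified and 0.0537 ± 0.0532 RPKM in dry mutant-labelled seeds, and 175 ± 115 RPKM in stratified and 0.0880 ± 0.117 RPKM in dry wild-type seeds (SD, n = 3 each). The 5 seed coat genes summed to 1.39 ± 0.414 RPKM in stratified and 0.399 ± 0.0711 RPKM in dry mutant-labelled seeds, and to 2.28 ± 1.16 RPKM in stratified and 0.496 ± 0.0676 RPKM in dry wild-type seeds.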
